A study of Mus musculus with 6 samples.

Results

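The complement genes examined here were the 9 rows with the symbols C1qa, C1qb, C1qc, C1s1, C1ra, C3, C4b, C7 and Serping1 among the 53819 genes of a bulk RNA-seq count table of healing mouse tendon, and all 9 passed the filter on low counts. Each library came from 1 flexor digitorum longus (FDL) tendon of the hind paw, harvested 28 days after the tendon had been cut and sutured in mice of 10 to 12 weeks of age. The DTR group (n = 3) was Scx-Cre+; DTR F/+, in which the Scx-Cre driver switches on a diphtheria toxin receptor in cells with a history of expressing Scleraxis, a tendon transcription factor. The WT group (n = 3) was Scx-Cre-; DTR F/+, which carries the same silent receptor allele without the Cre. Both groups had the surgery and 5 daily local injections of 100 ng diphtheria toxin (DT) on days 14 to 18 after surgery, so neither group is uninjured or free of toxin. Titles of the samples place day 28 after depletion, whereas their protocol and the study's methods place it after surgery, as is done here. Scx-Cre is active from development on and the depleted lineage is broad, and male and female mice were used without a label that says which library is which.

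Complement is a cascade of plasma proteins that marks microbes and damaged cells. In the classical route C1q, a bundle of A, B and C chains made mainly by macrophages, binds a target and turns on the proteases C1r and C1s, which cleave C4 and C2 so that C3 is cleaved and deposited. C7 belongs to the terminal complex that inserts into membranes, and Serping1 encodes the C1 inhibitor, which inactivates C1r and C1s. Outside the liver, fibroblasts are known as a source of C1r, C1s, C3, C4 and C1 inhibitor, so macrophages and fibroblasts of a tendon can both feed the same route.

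The libraries held 42744138 to 48854310 counts. Normalized counts below are counts scaled by TMM factors to a common library size. Values of 3 libraries stand in the order of replicates 1 to 3. Differences were tested by edgeR's quasi-likelihood test over 17496 genes, where a Benjamini-Hochberg adjusted p under 0.05 made a call, and log2 fold changes are DTR over WT with their standard error (SE). Skeletal muscle transcripts differed widely between libraries, with 18076 to 24797 CPM for a list of 14 genes in WT and 3165, 21741 and 5408 CPM in DTR replicates 1 to 3. A list of 7 keratinocyte genes held 2369 and 1428 CPM in WT replicates 1 and 2, 199 CPM in DTR replicate 3 and at most 8.69 CPM in the others. Xist, the transcript of the inactive X chromosome of female cells, had 3, 49303 and 3 counts in WT replicates 1 to 3 and 4, 53828 and 54082 counts in DTR replicates 1 to 3, so 2 WT libraries but 1 DTR library were Xist-low. Because whole tendons were sequenced, fewer cells of a type cannot be told apart from less RNA per cell. The label tendon fitted its markers, since Scx, Tnmd, Mkx, Fmod, Thbs4, Comp and Kera were all detected. Together they held 12532 to 15589 CPM in WT and 16153 to 17715 CPM in DTR tendons, so the summed level was higher in each DTR library. That sum leaned on Thbs4, with means of 253130 (WT) and 396149 (DTR) normalized counts. Of these markers 5 were fitted higher and 2 lower in DTR tendons, the latter Fmod (260607 and 231109) and Comp (40214 and 35515). Scx itself stood at 2201, 2703 and 3063 normalized counts in WT and at 3475, 3406 and 3531 in DTR replicates 1 to 3. Its log2 fold change was 0.39 (SE 0.12, adjusted p = 0.371 by edgeR). The study names depletion efficiency as something it could not quantify. How far the lineage was still depleted at harvest was not tested here.

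RefSeq promoter windows, from 250 bases before to 50 bases after the start of transcription, were held for 6 of the 9 members. The windows of C1qb and C1qc are shown because these neighbouring genes on chromosome 4 were the steadiest in these libraries, and that of C7 because it was the most variable member. All are on build GRCm38.p6, on the minus strand, and read 5′ to 3′ in the direction of the gene. Capitals mark matches, on either strand and without any overlap between motifs, to a PU.1 motif (GAGGAAG), a STAT motif (TTCNNNGAA), a C/EBP motif (TTGCNNCAA) or a TATA box (TATAAA).
C1qb at chr4:136886151-136886450: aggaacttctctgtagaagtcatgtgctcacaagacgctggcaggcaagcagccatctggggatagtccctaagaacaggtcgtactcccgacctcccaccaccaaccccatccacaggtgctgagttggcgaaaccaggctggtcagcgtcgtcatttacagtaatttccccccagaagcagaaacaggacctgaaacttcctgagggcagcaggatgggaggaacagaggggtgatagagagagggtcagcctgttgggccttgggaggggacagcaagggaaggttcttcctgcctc
C1qc at chr4:136892865-136893164: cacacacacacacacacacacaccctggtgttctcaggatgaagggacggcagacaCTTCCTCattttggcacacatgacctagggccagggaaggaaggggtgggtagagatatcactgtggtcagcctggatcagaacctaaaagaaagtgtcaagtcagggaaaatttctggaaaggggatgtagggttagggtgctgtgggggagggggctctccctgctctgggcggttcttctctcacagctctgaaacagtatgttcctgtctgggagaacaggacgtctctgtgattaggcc
C7 at chr15:5063724-5064023: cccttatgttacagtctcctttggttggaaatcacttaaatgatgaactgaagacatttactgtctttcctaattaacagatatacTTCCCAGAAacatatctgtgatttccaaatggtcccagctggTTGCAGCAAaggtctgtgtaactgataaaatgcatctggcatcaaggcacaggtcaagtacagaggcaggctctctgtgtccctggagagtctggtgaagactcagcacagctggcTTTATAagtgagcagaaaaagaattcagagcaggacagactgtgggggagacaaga
The C1qc window held 1 PU.1 match, which begins 194 bases before the start, and the C1qb window held none of the 4 motifs. PU.1 is a transcription factor of macrophages and other myeloid cells, and 13.6% of all 32851 windows held its motif. The C7 window held 1 STAT match and 1 C/EBP match, beginning 164 and 122 bases before the start. It also held 1 TATA match, which reads on the opposite strand and begins 6 bases before the start. These motifs were found in 8.3%, 2.08% and 13.6% of all windows. A match is a stretch of letters and not a measured binding site.

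Across the 9 members, edgeR called 0 genes at an adjusted p under 0.05, where 0% of all 17496 genes were called, and DESeq2 also called 0 of the 9, where it called 2.65% of all genes. At an unadjusted p under 0.05 edgeR gave 1 of 9, C4b, lower in DTR tendons, against 5.45% of all genes on that side and 11% in either direction. DESeq2 gave 4 at an unadjusted p under 0.05 (C3, C4b, C7 and Serping1), each lower, against 7.25% of its 17564 genes on that side. The groups overlapped for all 9 members, while 16.8% of all genes had no overlap in either direction and 7.85% none with DTR lower. Fitted values were below 0 for 7 of 9 members, against 48.5% of all genes. The members nevertheless split in their values. The C1q chains and the C1 proteases lay close to equal in both groups, while C3, C4b, Serping1 and C7 had lower means in DTR tendons.

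Levels between genes were compared per kilobase of exon, as CPM per kilobase. In WT tendons Serping1 was the highest member at 460 ± 55.6 CPM per kilobase (SD, n = 3), followed by C1qb at 349 ± 33.9 (SD, n = 3) and C1qa at 347 ± 41.0 (SD, n = 3), which did not differ beyond their spread. C1qc was at 165 ± 14.2 CPM per kilobase (SD, n = 3). C1s1 at 81.3 ± 7.69 and C3 at 79.3 ± 9.97 CPM per kilobase (SD, n = 3 each) were also neighbours within their spread. C1ra at 39.3 ± 3.61 and C4b at 31.3 ± 8.55 CPM per kilobase overlapped as well, and C7 was lowest at 7.43 ± 5.59 (SD, n = 3 each). In DTR tendons Serping1 at 357 ± 55.4 CPM per kilobase was within its spread of C1qa at 347 ± 29.2, C3 at 61.7 ± 12.4 stood below C1s1 at 87.1 ± 11.0, and C7 was at 0.792 ± 0.862 (SD, n = 3 each). The 3 DTR libraries held 341, 418 and 310 CPM per kilobase of Serping1 against 354, 372 and 315 of C1qa, so the inhibitor gene was the higher of the pair in DTR replicate 2 and slightly the lower in the others.

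The means of the C1q chains were close in both groups. C1qa, the A chain, stood at 17796, 14311 and 17593 normalized counts in the WT libraries, against 16890, 17739 and 15013 in the DTR libraries. The lowest library was in WT and the DTR libraries lay inside the WT range, so the groups overlapped fully. Its log2 fold change was -0.0017 ± 0.13 SE, with a 95% interval from -0.29 to 0.29 (adjusted p = 0.997 by edgeR). C1qb, the B chain, stood at 18948, 15592 and 17665 normalized counts in the WT libraries, against 17121, 18245 and 15900 in the DTR libraries. The fitted log2 fold change was -0.03 (SE 0.11, 95% interval -0.29 to 0.24, adjusted p = 0.951 by edgeR). C1qc, the C chain, stood at 15414, 13148 and 15242 normalized counts in the WT libraries, against 14192, 14998 and 13053 in the DTR libraries. Its log2 fold change was -0.05 (SE 0.11, 95% interval -0.31 to 0.20, adjusted p = 0.887 by edgeR). The intervals of the 3 chains span folds from 0.809 to 1.22, and larger differences lay outside them.

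The 3 chains also moved together from library to library. WT replicate 2 and DTR replicate 3 were the lowest libraries for each chain. The genes lie next to each other on chromosome 4, with no other protein-coding gene between them in RefSeq. Within a library the ratio of C1qa to C1qb counts was 0.918 to 0.996, and that of C1qc to C1qb counts 0.813 to 0.863, in the 6 libraries. Highest and lowest library differed by 1.24-fold in C1qa, 1.22-fold in C1qb and 1.18-fold in C1qc.

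**Figure D1:**
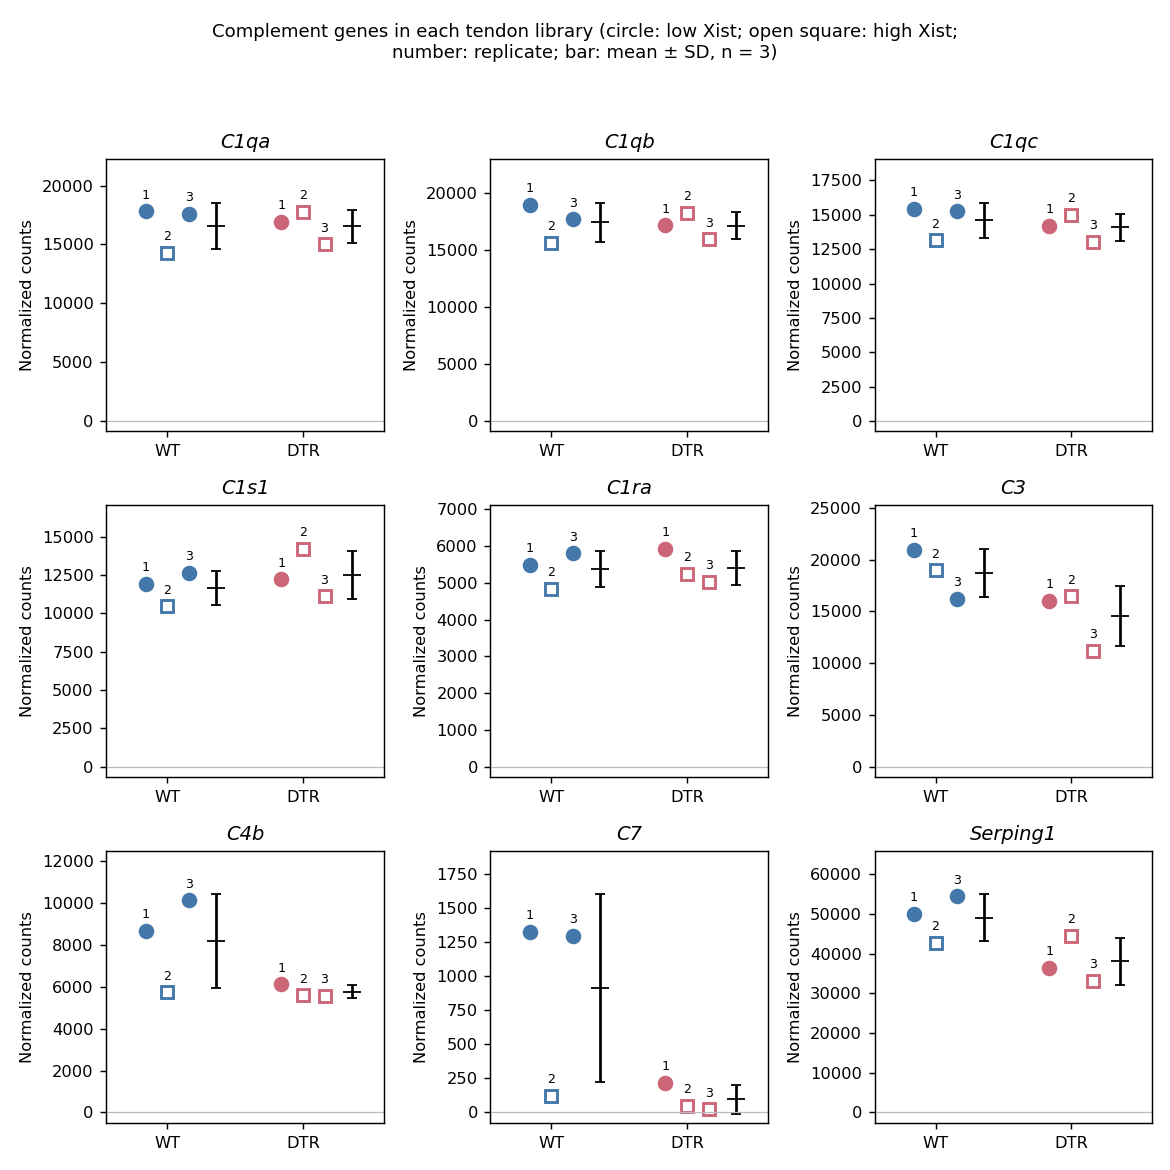
Normalized counts of the 9 complement genes in each library (vertical axis, from about 0), with WT in blue and DTR in red, the replicate number above each point, filled circles for Xist-low and open squares for Xist-high libraries, and a bar for the mean ± SD (n = 3). The C1q panels are level between groups, while in the C7 panel WT replicates 1 and 3 stand at 1322 and 1295 and the other 4 libraries at 218 or less.

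Macrophage transcripts as a whole stood beside C1q in the same way. The 17 macrophage markers summed to 3822 to 4890 CPM in WT and 4058 to 4837 CPM in DTR tendons, with none at or near 0, and 11 were fitted higher and 6 lower in DTR tendons. None was called by edgeR, with 1 at an unadjusted p under 0.05, and 1 was called by DESeq2, Cd163 below. The markers include Adgre1, Csf1r, Cd68 and Lyz2. The ratio of the C1q chains' counts to these markers' counts was 0.232, 0.245 and 0.248 in the WT libraries and 0.217, 0.240 and 0.236 in the DTR libraries. On the log2 scale it was -2.05 ± 0.049 in WT and -2.12 ± 0.076 in DTR tendons (SD, n = 3 each), so the difference was smaller than the SD of the DTR libraries. Cd163, a scavenger receptor for haemoglobin that is named here after its values were seen, stood at 2512, 2713 and 2122 normalized counts in the WT libraries, against 489, 1123 and 944 in the DTR libraries, without overlap. Its log2 fold change was -1.52 (SE 0.31, adjusted p = 0.293 by edgeR and 2.7e-06 by DESeq2). The 5 erythroid markers, the genes of haemoglobin chains and Alas2, were fitted lower in DTR tendons beside it, 4 of them without overlap, with a summed level of 96.1 to 217 CPM in WT and 53.9 to 90.6 CPM in DTR tendons. DESeq2 called 4 of the 5 and edgeR 0 (5 at an unadjusted p under 0.05), and their part in the Cd163 values was not tested. All 6 markers of resident macrophages were fitted lower in DTR tendons, with a median log2 fold change of -0.58 against 0.01 (0.0082) over all genes tested, and a summed level of 383 to 576 CPM in WT and 257 to 417 CPM in DTR tendons. None of the 6 passed edgeR's adjusted threshold, 3 had an unadjusted p under 0.05, and DESeq2 called 1, Cd209f. Of all genes 5.45% were lower in DTR tendons at an unadjusted p under 0.05 in edgeR. For comparison, 7.85% had no overlap with DTR lower, and DESeq2 called 1.53% lower. The part of resident macrophages in the C1q values was not tested.

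The proteases that C1q activates were close in mean too. C1s1, which encodes C1s, stood at 11941, 10464 and 12625 normalized counts in the WT libraries, against 12207, 14214 and 11107 in the DTR libraries. DTR replicate 2 was the highest and WT replicate 2 the lowest, and the groups overlapped (log2 fold change 0.10 ± 0.13 SE, 95% interval -0.19 to 0.39, adjusted p = 0.794 by edgeR). C1ra, which encodes C1r, stood at 5494, 4839 and 5806 normalized counts in the WT libraries, against 5931, 5249 and 5025 in the DTR libraries. The fitted log2 fold change was 0.0059 ± 0.10 SE, with a 95% interval from -0.23 to 0.25 (adjusted p = 0.987 by edgeR). The 2 genes are neighbours on chromosome 6, and the ratio of C1s1 to C1ra counts was 2.17, 2.16 and 2.17 in the WT libraries but 2.06, 2.71 and 2.21 in the DTR libraries. The mouse has a second copy of each protease gene, C1rb with 3 to 8 counts and C1s2 with 21 to 93 counts a library. Counts of C1ra were 720 to 1863 times those of C1rb, and counts of C1s1 160 to 579 times those of C1s2. Few reads were thus assigned to the copies. How the authors' counting treated reads that match both copies is not given, so values of C1ra and C1s1 carry that uncertainty.

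The inhibitor of the proteases and the proteins below them had lower means in DTR tendons. Serping1, the C1 inhibitor, stood at 49996, 42694 and 54432 normalized counts in the WT libraries, against 36435, 44594 and 33117 in the DTR libraries. DTR replicate 2 lay inside the WT range and the other 2 DTR libraries below it. The log2 fold change was -0.37 (SE 0.16, 95% interval -0.74 to 0.0038, unadjusted p = 0.052 and adjusted p = 0.459 by edgeR), which corresponds to 77.6% of the WT mean. C3, on which all routes of the cascade meet, stood at 20917, 18979 and 16237 normalized counts in the WT libraries, against 16043, 16455 and 11198 in the DTR libraries. WT replicate 3 and DTR replicates 1 and 2 were nearly equal, and DTR replicate 3 was lowest. For C3 the log2 fold change was -0.36 (SE 0.17, 95% interval -0.76 to 0.04, adjusted p = 0.482 by edgeR).

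C4b, which encodes C4, the substrate of C1s, stood at 8678, 5735 and 10120 normalized counts in the WT libraries, against 6114, 5591 and 5562 in the DTR libraries. The DTR libraries were tightly grouped, and WT replicate 2 lay among them while WT replicates 1 and 3 were higher. The log2 fold change was -0.51 (SE 0.20, 95% interval -0.97 to -0.04), with an unadjusted p = 0.037 and an adjusted p = 0.442 by edgeR. C4a, the close copy of C4b, had 40 to 71 counts a library, and counts of C4b were 76.3 to 158 times as many. How reads that match both copies were counted is not given. C3, C4 and C1 inhibitor are known to respond to interferon in many cells. A list of 17 interferon-responsive genes summed to 275 to 518 CPM in WT and 334 to 446 CPM in DTR tendons, with 13 fitted higher and 4 lower. Of these 0 were called by edgeR or DESeq2 or under an unadjusted p of 0.05 in edgeR. The part of interferon in the C3, C4b and Serping1 values was not tested.

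General fibroblast markers did not share the lower means. The 9 fibroblast markers were all fitted above 0 on the log2 scale, at a median of 0.29. Pdgfra, Pdgfrb and Dcn were close to equal in both groups, at 0.03 (SE 0.14), 0.03 (SE 0.15) and 0.04 (SE 0.18). Col3a1 was at 0.54 (SE 0.22). The summed level of the 9 markers was 50749 to 57804 CPM in WT and 56511 to 81604 CPM in DTR tendons. Most of that sum was Col1a1, Col1a2 and Col3a1. By edgeR or DESeq2 0 were called, and 3 had an unadjusted p under 0.05 in edgeR, against 11% of all genes in either direction. The 8 markers of sheath and adventitial fibroblasts, such as Pi16 and Dpp4, lay at a median of 0.30 on the log2 scale (6 higher, 2 lower), with a summed level of 2357 to 3048 CPM in WT and 2846 to 3583 CPM in DTR tendons. The liver makes most circulating complement, and the 7 hepatocyte markers, Alb among them, were each under 1 CPM in every library. The cell source of the members was not tested.

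Within libraries, the inhibitor was lower relative to its targets. For each count of C1s1 there were 4.19, 4.08 and 4.31 counts of Serping1 in the WT libraries, against 2.98, 3.14 and 2.98 in the DTR libraries. Each DTR library was below each WT library, by a margin wider than the spread in either group, and the log2 ratio was on average -0.47 apart, DTR minus WT, where its SD was 0.040 in WT and 0.042 in DTR tendons (n = 3 each). In DTR replicate 2 Serping1 lay inside the WT range (44594 normalized counts), and C1s1 was the highest of all libraries (14214). The ratio of Serping1 to C1s1 needs no scaling between libraries. It was chosen after the values were seen and is given without a test, and 9.89% of all other tested genes also had a ratio to C1s1 that was lower in every DTR library. The ratio of Serping1 to C1ra was 9.10, 8.82 and 9.37 in the WT libraries and 6.14, 8.50 and 6.59 in the DTR libraries, again without overlap, although DTR replicate 2 was close to WT replicate 2. The ratio of Serping1 to the 3 C1q chains was 0.959 to 1.08 in WT and 0.753 to 0.875 in DTR tendons. A share over all genes was taken only for ratios to C1s1. Lack of overlap was not particular to Serping1, since 11 of the 36 pairs of members had it, 5 of them with Serping1. The ratio of C4b to C1s1 was 0.548 to 0.802 in WT and 0.393 to 0.501 in DTR tendons, while that of C3 to C1s1 overlapped (1.29 to 1.81 against 1.01 to 1.31).

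**Figure D2:**
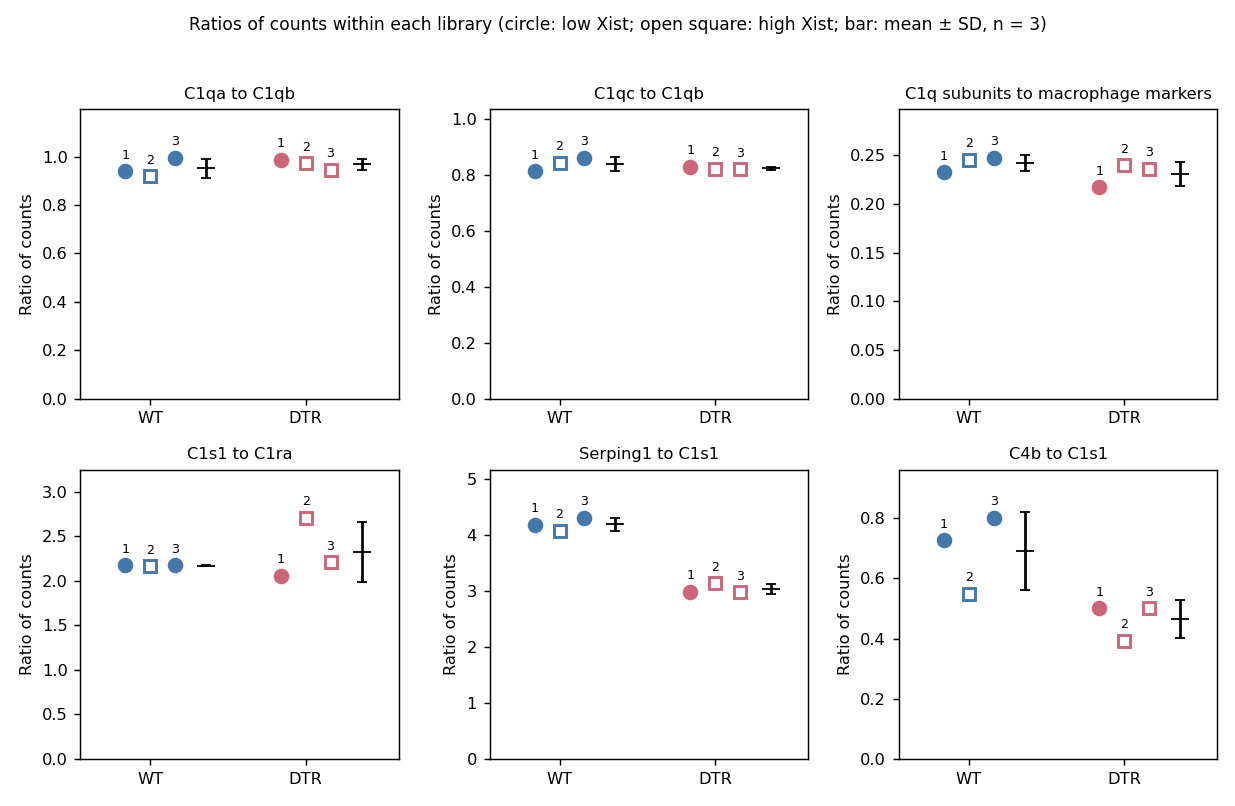
Ratios of counts within each library (vertical axis, from 0) for pairs of complement genes and for the C1q chains against 17 macrophage markers, with symbols for Xist level and group as for the normalized counts and a bar for the mean ± SD (n = 3). Serping1 to C1s1 is at 4.08 to 4.31 in WT and 2.98 to 3.14 in DTR libraries, while the C1q panels are level.

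C7, a component of the terminal complex, had the widest spread of the members. It stood at 1322, 120 and 1295 normalized counts in the WT libraries, against 218, 50.7 and 22.6 in the DTR libraries. WT replicates 1 and 3 stood far above the rest, and WT replicate 2 was below DTR replicate 1, so the groups overlapped. The highest library held 58.5 times the lowest. Its log2 fold change was -3.23 ± 1.33 SE with a 95% interval from -6.75 to 0.29 (unadjusted p = 0.064, adjusted p = 0.474 by edgeR). Of all genes 0.995% were fitted at or below this value, but the interval includes 0. With 1 library left out in turn it lay between -4.63 (without DTR replicate 1) and -2.76 (without DTR replicate 3).

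C7, C4b and C1ra stood lower in the Xist-high than in the Xist-low libraries. For these 3 of the 9 members each Xist-low library was above each Xist-high library, an order that 3.33% of all genes tested had. Among the Xist-low libraries, C7 stood at 1322 and 1295 normalized counts (WT) against 218 (DTR), and among the Xist-high libraries at 120 (WT) against 50.7 and 22.6 (DTR). Both Xist levels thus gave lower C7 in DTR libraries, with log2 differences of -2.58 and -1.72, each resting on 3 libraries. C4b had 8678 and 10120 normalized counts against 6114 in the Xist-low libraries, but 5735 against 5591 and 5562 in the Xist-high libraries, so nearly the whole difference in C4b lay among the Xist-low libraries. With the log2 level of Xist as a term, C7 was at -2.14 ± 0.37 SE on the log2 scale (unadjusted p = 0.0014, adjusted p = 0.229 by edgeR), where 12.7% of all genes were under an unadjusted p of 0.05. With the same term C4b was at -0.33 (SE 0.16, adjusted p = 0.429), Serping1 at -0.33 (SE 0.17, adjusted p = 0.469) and C3 at -0.33 (SE 0.19, adjusted p = 0.491 by edgeR). Serping1 averaged 52214 normalized counts (WT) against 36435 (DTR) among the Xist-low libraries. Among the Xist-high ones it stood at 42694 (WT) against 44594 and 33117 (DTR, mean 38855), so the DTR libraries lay on either side of the WT library. The split at 10 Xist counts was set after the data were seen. With 1 or 2 libraries in each cell, genotype and Xist level are only partly separable.

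Skeletal muscle transcripts were low in DTR replicates 1 and 3, while DTR replicate 2 lay inside the WT range. With the log2 summed muscle level as a term, Serping1 was at -0.20 (SE 0.19), C3 at -0.24 (SE 0.23), C4b at -0.59 (SE 0.29) and C7 at -4.45 (SE 2.25), none past an adjusted p of 0.05 by edgeR. C1qa, C1qb and C1qc stayed between 0.01 and 0.06 on the log2 scale in that fit.

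**Figure D3:**
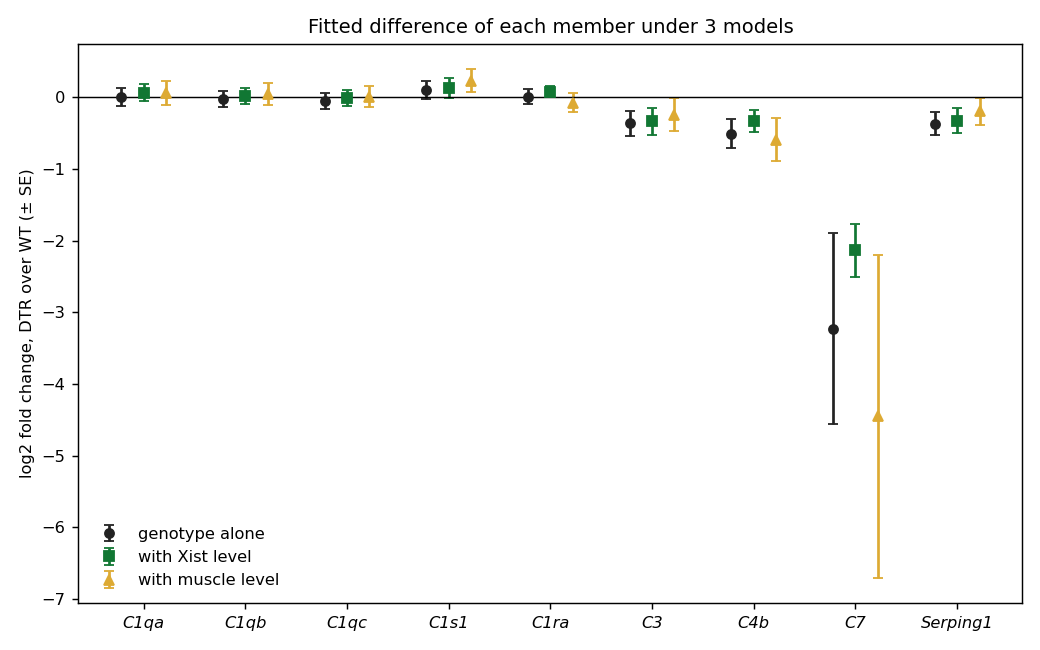
Fitted log2 fold change, DTR over WT, of each member (vertical axis, ± SE) with genotype alone, with the Xist level and with the skeletal muscle level as a further term. The error of C7 is 1.33 with genotype alone and 0.37 with the Xist level, and the C1q chains stay near 0 in all 3 fits.

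The other genes of the cascade were read from a list of 44, of which 32 passed the filter on low counts. Their median log2 fold change was 0.06 against 0.01 (0.0082) over all genes, and 19 were fitted higher and 13 lower. None was called by edgeR, while DESeq2 called 0 higher and 3 lower (Cfd, Clu and Vtn), against 1.53% of all genes called lower. At an unadjusted p under 0.05 edgeR gave 0 higher and 4 lower, against 5.45% of all genes lower. Groups did not overlap for 1 gene higher and 4 lower in DTR tendons. Of all genes 16.8% had no overlap in either direction and 7.85% none with DTR lower. Among the initiators of the classical and lectin routes 8 of 13 were tested. Fcna, a ficolin that recognises sugars and is made by macrophages, stood at 339, 202 and 299 normalized counts in the WT libraries, against 148, 196 and 155 in the DTR libraries, without overlap (log2 fold change -0.75 ± 0.24 SE, adjusted p = 0.378 by edgeR). C2, the partner of C4 in the C3 convertase, was level at 777 ± 53.3 and 742 ± 45.8 normalized counts (SD, n = 3 each).

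In the alternative route, which amplifies C3 cleavage, the 3 genes had unlike values. Cfd, the protease that activates factor B and a classical product of adipocytes, stood at 335, 752 and 1138 normalized counts in the WT libraries, against 83.5, 207 and 94.5 in the DTR libraries. Each DTR library was below each WT library (log2 fold change -2.53 ± 0.59 SE, adjusted p = 0.339 by edgeR and 0.0061 by DESeq2). The 7 adipocyte markers were all fitted lower in DTR tendons beside it, with a median log2 fold change of -2.28. Of these 6 did not overlap between groups, against 7.85% of all genes with DTR lower. None was called by edgeR, 6 had an unadjusted p under 0.05 (5.45% of all genes, lower), and DESeq2 called 3 (1.53%, lower). Their summed level was 147 to 207 CPM in WT and 101 to 160 CPM in DTR tendons, with Lep under 1 CPM in every library. Most of that sum was Fabp4, which overlapped at means of 5947 (WT) and 4925 (DTR) normalized counts. The part of the adipocyte markers in the Cfd values was not tested. Cfb, which encodes factor B, was low but higher in each DTR library (59.9, 43.3 and 50.9 against 63.9, 66.0 and 75.0 normalized counts), with an adjusted p = 0.569 by edgeR. Cfp, which encodes properdin, was level at 1230 ± 219 and 1316 ± 148 normalized counts (SD, n = 3 each).

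Among the soluble regulators, which keep the cascade in check, 5 of 6 genes were tested and the list's median log2 fold change was -0.45. Clu, which encodes clusterin, an inhibitor of the terminal complex, stood at 28806, 21732 and 28243 normalized counts in the WT libraries, against 13862, 17571 and 14552 in the DTR libraries. The groups did not overlap, and the log2 fold change was -0.78 (SE 0.15, unadjusted p = 0.0011 and adjusted p = 0.274 by edgeR, 0.00014 by DESeq2). Vtn, which encodes vitronectin, another inhibitor of the terminal complex, stood at 1334, 912 and 1337 normalized counts in the WT libraries, against 644, 835 and 830 in the DTR libraries (log2 fold change -0.63 ± 0.18 SE, adjusted p = 0.347 by edgeR and 0.044 by DESeq2). Among the Xist-low libraries the log2 differences were -1.04 for Clu and -1.05 for Vtn, against -0.44 and -0.13 among the Xist-high libraries. With the Xist level as a term Clu was at -0.74 (SE 0.17) and Vtn at -0.59 (SE 0.22). With the muscle level as a term Clu was at -0.59 (SE 0.19) and Vtn at -0.48 (SE 0.24). In that fit Fcna was at -0.52 (SE 0.32) and Cfd at -2.06 (SE 0.78). None passed an adjusted p of 0.05 by edgeR in these fits.

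The genes that protect the cell surface and those that sense complement fragments had medians near 0 on the log2 scale. Of the membrane regulators 5 of 6 were tested, with a median log2 fold change of 0.06, and Cr1l, the rodent brake on C3 convertases, had 3822 ± 107 and 3767 ± 47.7 normalized counts (SD, n = 3 each). Of 9 receptor genes 8 were tested, with a median of 0.09, 6 fitted higher and 2 lower. C3ar1, the receptor for C3a, averaged 6643 ± 372 (WT) and 6923 ± 147 (DTR) normalized counts, and C5ar1, a receptor for C5a, 1685 ± 179 and 1841 ± 301 (SD, n = 3 each). The 5 terminal genes beside C7 were near the floor, with C8g at 13 to 25 counts a library, C8a, C8b, C6 and C9 at 0 to 9 counts, and Hc, the gene of C5, at 4 to 29 counts.

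**Figure D4:**
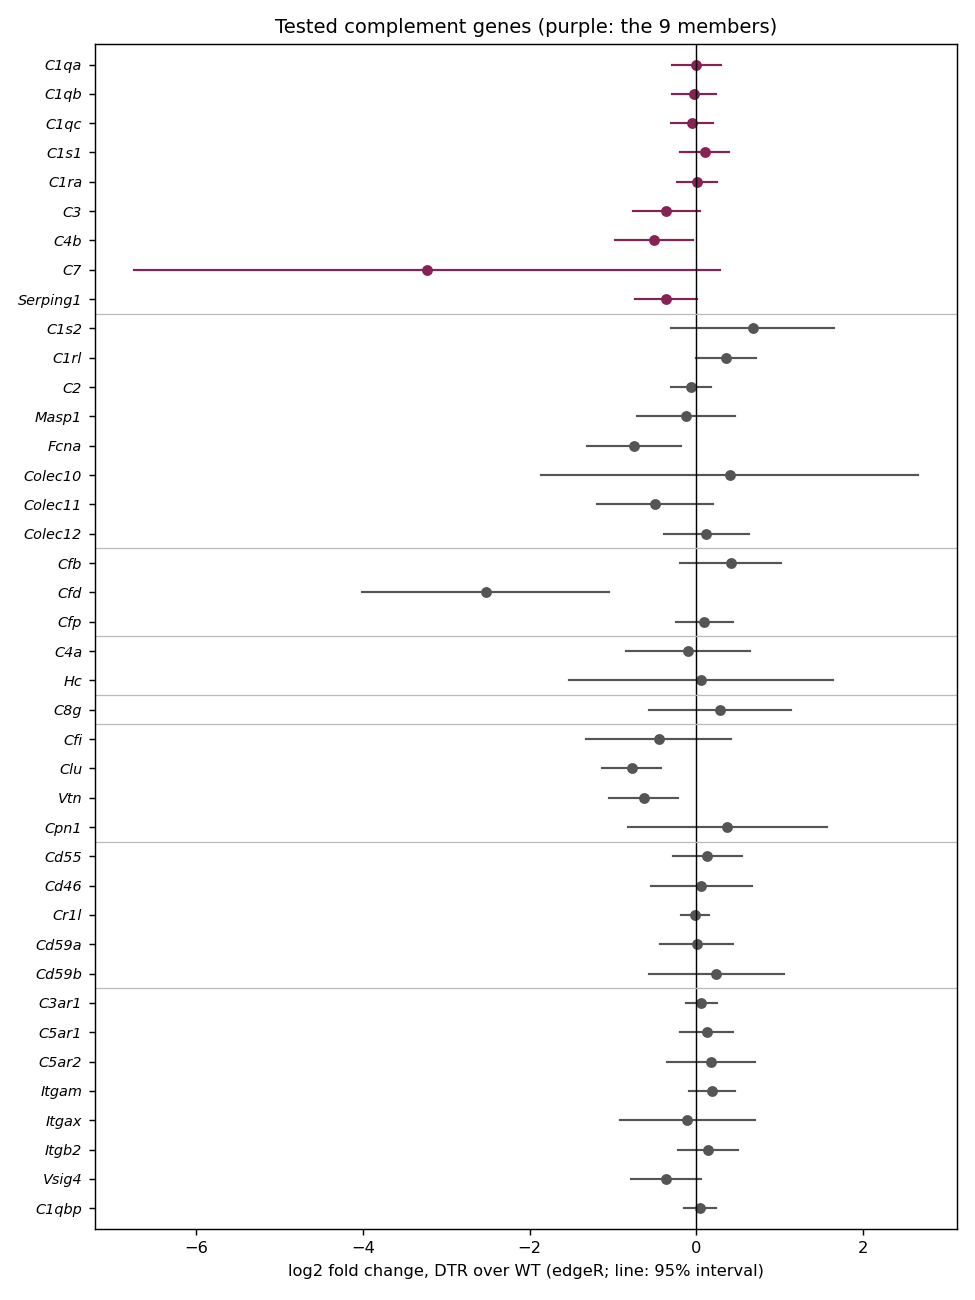
Log2 fold change, DTR over WT, with its 95% interval (horizontal axis) for tested complement genes in order of role, with 1 soluble regulator not shown, separated by grey lines, with the 9 members in purple. C7 at -3.23 and Cfd at -2.53 are the lowest points, and the C1q chains, the membrane regulators and most receptors lie near 0.

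The genes most like each member were taken as those with the smallest root mean square (RMS) difference in centred log2 CPM over the 6 libraries, among 14400 genes with at least 50 normalized counts on average. These are descriptions over 6 libraries that share the 2 groups, and a profile that hardly varies has many neighbours. For the C1q mean the nearest genes were Ube2l6, Auh and Pfdn5 (RMS difference 0.022 to 0.025 against a median of 0.195). For C1s1 they were Aurkaip1, Cetn2 and Mrpl40, and for C1ra Atp6v1c1, Nelfe and Chmp4b. C3 was nearest to Gm47754, Wdtc1 and Adcy9, C4b to 5830408C22Rik, Fbxl22 and Smim1, and Serping1 to Ric3, Arhgef3 and Txnip (RMS difference 0.047 to 0.070 against a median of 0.305). Txnip, an abundant gene that restrains thioredoxin, stood at 22713, 18458 and 21996 normalized counts in the WT libraries, against 14771, 17881 and 14634 in the DTR libraries, with the same pair of middle libraries as Serping1, the second replicate of each group. The nearest to C7 were Serpina3m, Agt and Cd209d, at RMS differences of 0.840 to 1.24 against a median of 2.17. Serpina3m stood at 470, 43.3 and 259 normalized counts in the WT libraries, against 115, 37.3 and 28.8 in the DTR libraries, so WT replicate 2 was below DTR replicate 1 in this gene as in C7.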

How the data were processed

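The authors demultiplexed single-end reads with bcl2fastq 2.19.0, cleaned them with FastP 0.20.0 and counted them per gene with featureCounts of subread 1.6.4. They deposited raw counts, and a second signal table that the authors made by dividing the counts by 1 DESeq2 size factor per library. The aligner, genome build, annotation and strand setting are not given in the sources used here. Columns were matched to samples by the labels' descriptions.

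Counts of 17496 of 53819 genes passed filterByExpr and were fitted in R 4.3.3 with edgeR 4.0.16 (TMM, robust quasi-likelihood, genotype as the single term). Intervals are 95% intervals of that fit. Alternatives used DESeq2 1.42.0, limma 3.58.1, other normalizations and filters, the replicate number, the Xist level or the muscle level as a term, and each library left out. A soluble regulator counted within its list is not reported here by itself. Exon lengths came from GENCODE vM21. The fits were tested on simulated data. Named genes were the 9 members, pathway genes called by a tool or without overlap at 10 or more normalized counts, and the 3 genes nearest to each of 7 profiles. Markers and other genes that set them in context were also named. The members and lists were chosen with earlier results of these data known. With n = 3 a group, differences between tendons limit the precision more than depth does.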

Additional observations from a re-analysis of the deposited data

How the results depend on the processing

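The number of members called was 0 under all 17 alternatives, and C3, C4b, C7 and Serping1 stayed negative in all 17. With each library left out in turn, the C4b log2 fold change lay between -0.71 and -0.33, that of Serping1 between -0.49 and -0.27, that of C3 between -0.46 and -0.20 and that of C7 between -4.63 and -2.76. Over all genes, edgeR called 0. DESeq2 called 466, edgeR without a filter 83 and, with 1 library left out, 0 to 544, the last without DTR replicate 2. Of the other pathway genes DESeq2 called 3, and edgeR called 1, Clu, without a filter and 0 to 1 with 1 library left out, again without DTR replicate 2. The cause was not tested.

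The members near 0 changed sign. C1qa was at 0.0042 with upper quartile normalization, 0.00092 without a filter, 0.0017 with the replicate block, 0.00090 with the deposited normalized counts, 0.0621 with muscle and 0.0656 with Xist as a term, and -0.10 to 0.0653 with 1 library left out. C1qb was at 0.0494 with muscle, 0.0184 with Xist and -0.10 to 0.0399 with 1 library left out. C1qc was at 0.0108 with muscle and -0.12 to 0.00096 with 1 library left out. C1ra was at -0.0232 with library size normalization, -0.0019 with at least 10 counts in every library, -0.0737 with muscle and -0.0704 to 0.0620 with 1 library left out. C1s1 was at -0.00070 to 0.18 with 1 library left out. The difference in the C1q to macrophage log2 ratio was -0.07 with all 17 markers, -0.03 without Lyz2 and -0.10 to -0.02 with 1 library left out.

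The values gave no sign that the replicate numbers pair the samples. Deviations of same-numbered libraries correlated at -0.19, -0.15 and -0.68, and 0 of the 6 libraries correlated best with their own number. Because libraries also differed widely in Xist and muscle transcripts, these correlations cannot tell whether same-numbered tendons shared a batch. With the replicate block edgeR called 1 gene in all and 0 members.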
